A study of Mus musculus with 4 samples.

Results

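The RasGRP exchange factors are the 4 mouse genes Rasgrp1, Rasgrp2, Rasgrp3 and Rasgrp4, and all 4 were found among the 24415 Entrez gene rows of the deposited count table. The family was proposed with the values of this comparison in view, so its members were in effect chosen from the same wild-type and inducible HIF-1α counts that are given below, and their differences are described without a test. RNA was sequenced from bone marrow cells enriched with beads against CD117 (KIT), a receptor of hematopoietic stem and progenitor cells. The 2 groups were wild-type mice and mice in which a constitutively active form of HIF-1α had been induced, with 2 libraries each. HIF-1α is the oxygen-regulated subunit of a transcription factor, and the comparison asks which transcripts differ when it is active in a model of myelodysplastic syndrome, as named in the series title. Both genotypes have the strain background C57BL/6, 129X1/SvJ. The sources used here give neither the driver of the transgene, nor the inducing agent, nor the ages, nor whether 1 library is 1 mouse.

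RasGRP proteins switch on small GTPases of the Ras and Rap families by making them release GDP and take up GTP. Most of them are recruited to membranes by diacylglycerol (DAG), the lipid that phospholipase C releases behind antigen and cytokine receptors. Several of them also bind calcium. RasGRP1 links the T cell receptor to Ras and also acts in B cells, RasGRP3 acts with it behind the B cell receptor, RasGRP2 (CalDAG-GEFI) activates Rap1 and through it the integrins of platelets and neutrophils, and RasGRP4 is known from mast cells and other myeloid cells.

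Libraries held 22221798 to 27539149 counts. The biological coefficient of variation was 33.4% within inducible HIF-1α and 15.1% within wild type. Levels are given as CPM, counts scaled to a common library size after TMM normalization. Kit, the selected surface marker, was detected at 242.2 to 390.4 CPM in every library. Hif1a itself was at 179 and 168.4 CPM in wild type and 155.2 and 112.7 CPM in inducible HIF-1α (log2 fold change -0.38 ± 0.21 (SE), edgeR adjusted p = 0.426). No source used here says whether its row counts the induced transcript, so this row does not check the genotype labels.

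Rasgrp1, the exchange factor of T cell receptor and B cell signalling, had the largest difference of the 4 members. The gene (Entrez 19419) lies on the minus strand of chromosome 2, 117279983 to 117342877 in GRCm38. It was counted 614 and 548 times in the wild-type libraries and 35 and 17 times in the inducible HIF-1α libraries. These counts corresponded to 22.9 and 25.3 CPM against 1.36 and 0.636 CPM. Both inducible HIF-1α libraries were far below both wild-type libraries, and the lowest wild-type value was 16.9 times the highest inducible HIF-1α value. The fitted log2 fold change was -4.59 ± 0.41 (SE), or 24.1-fold lower. The 17 counts of inducible HIF-1α replicate 2 carry an exact 95% Poisson interval of 9.90 to 27.2 counts, and such intervals cover counting error only.

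Rasgrp3, the B cell member (Entrez 240168; plus strand of chromosome 17, 75435870 to 75529054), had the fewest counts in wild type and was the one on which the inducible HIF-1α libraries differed most from each other. It was counted 203 and 232 times in wild type and 121 and 9 times in inducible HIF-1α. The values were 7.58 and 10.7 CPM in wild type and 4.69 and 0.337 CPM in inducible HIF-1α. The groups did not overlap, and the lower wild-type library was 1.62 times replicate 1 of inducible HIF-1α, while replicate 2 was 13.9 times lower than replicate 1. The fitted log2 fold change of -1.86 ± 0.93 (SE) averages over these unlike libraries. Leaving out replicate 1 of inducible HIF-1α gave -4.74, and leaving out its replicate 2 gave -0.92. The 9 counts of replicate 2 have an exact 95% Poisson interval of 4.12 to 17.1, and the 121 of replicate 1 one of 100.4 to 144.6.

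Promoter sequences of Rasgrp1 and Rasgrp3, the members with the largest fitted differences, are shown because they differ in base composition and in the short motifs they hold. RefSeq promoter windows of GRCm38.p6, from 250 bases before to 50 bases after a gene's start, were searched on both strands for the HIF core motifs ACGTG and GCGTG and for the ETS-type core GAGGAA, which PU.1-like factors share. Capitals mark a match, which reads in reverse complement where it lies on the other strand. The sequences run 5′ to 3′ on the gene's strand, at chr2:117342828-117343127 (minus strand) for Rasgrp1 and chr17:75435655-75435954 (plus strand) for the upstream start of Rasgrp3.
Rasgrp1: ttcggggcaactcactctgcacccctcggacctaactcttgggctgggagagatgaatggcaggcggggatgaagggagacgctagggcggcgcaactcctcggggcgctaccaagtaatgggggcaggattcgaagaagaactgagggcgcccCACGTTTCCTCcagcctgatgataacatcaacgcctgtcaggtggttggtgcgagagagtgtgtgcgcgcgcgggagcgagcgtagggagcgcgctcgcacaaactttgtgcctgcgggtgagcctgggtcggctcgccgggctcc
Rasgrp3: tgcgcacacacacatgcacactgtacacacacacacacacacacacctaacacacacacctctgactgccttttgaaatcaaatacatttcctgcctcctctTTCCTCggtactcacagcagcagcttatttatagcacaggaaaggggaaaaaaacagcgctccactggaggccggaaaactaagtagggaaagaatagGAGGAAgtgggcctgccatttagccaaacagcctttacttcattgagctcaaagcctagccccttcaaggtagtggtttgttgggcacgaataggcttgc

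The Rasgrp1 window held 1 ACGTG, starting 96 bases before the start site on the opposite strand. In the gene's direction it is directly followed by 1 GAGGAA, also on the opposite strand. It held no GCGTG. The upstream Rasgrp3 window held GAGGAA at both 148 and 50 bases before the start, once on each strand, and neither HIF core. The second Rasgrp3 start, at chr17:75465288-75465587, held none of the motifs. Each of the 2 Rasgrp2 starts, at chr19:6399625-6399924 and chr19:6401455-6401754 on the plus strand, held 1 GCGTG and no other motif. The promoter set used here has no window for Rasgrp4, so that gene was not searched. Such short motifs are common. Over 32851 mouse promoter windows of the same length, 19.6% held ACGTG, 32.4% held GCGTG, 43.8% held either HIF core and 28.3% held GAGGAA. The Rasgrp1 window was 63.7% G and C with 26 CG dinucleotides and the upstream Rasgrp3 window 48.3% with 5, against medians of 52.7% and 7 over all windows. The Rasgrp2 windows were 80% and 66% G and C. These matches describe letters in the windows and say nothing of binding.

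Rasgrp4, the mast and myeloid cell member (Entrez 233046; plus strand of chromosome 7, 29134607 to 29153961), had the highest counts of the family in every library except inducible HIF-1α replicate 2, where Rasgrp2 was counted 724 times. It was counted 3015 and 2578 times in wild type and 1461 and 708 times in inducible HIF-1α. In CPM this was 112.5 and 119 against 56.6 and 26.5. The wild-type libraries were close together and both inducible HIF-1α libraries lay below them, replicate 2 again lower than replicate 1. The fitted log2 fold change was -1.48 ± 0.35 (SE), or 2.79-fold lower. In the GENCODE M21 annotation of GRCm38, 978 exonic bases of Rasgrp4 overlap Fam98c on the other strand. Fam98c was counted only 125 to 171 times per library, and no source used here gives the strand setting of the counting.

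Rasgrp2, the Rap1 activator of platelets and neutrophils (Entrez 19395; plus strand of chromosome 19, 6398957 to 6415216), had the smallest difference. It was counted 2008 and 1796 times in wild type and 1351 and 724 times in inducible HIF-1α. The levels were 74.9 and 82.9 CPM in wild type and 52.3 and 27.1 CPM in inducible HIF-1α. The groups did not overlap, yet the gap between them, from 74.9 to 52.3 CPM, was smaller than the gap between the inducible HIF-1α libraries. The fitted log2 fold change was -0.99 ± 0.32 (SE), or 1.99-fold lower.

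**Figure D1:**
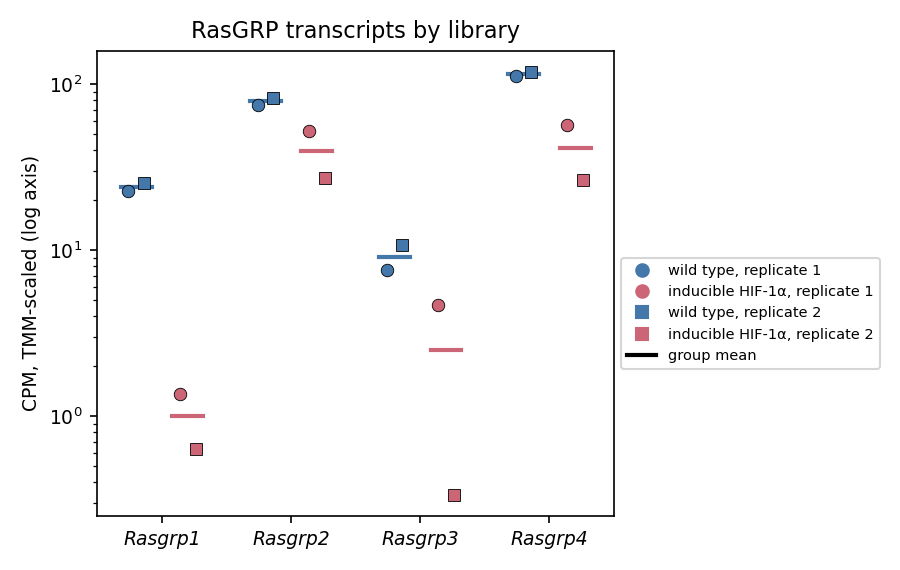
CPM after TMM scaling (log axis) of the 4 RasGRP genes in each library; circles and squares are replicates 1 and 2, blue is wild type, red is inducible HIF-1α, and bars are group means of 2 libraries. For every gene both red points lie under both blue points, by the widest margin for Rasgrp1, and Rasgrp3 has the widest spread between the red points (4.69 and 0.337 CPM).

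All 4 members passed the filter on low counts, and for all 4 both inducible HIF-1α libraries were below both wild-type libraries. Among the 14043 genes tested, 28.2% were arranged this way and 24.6% the opposite way. Since the family was chosen with this contrast in view, nothing is read from that count. The median of the 4 log2 fold changes was -1.67, and over all tested genes it was 0.00. Inducible HIF-1α replicate 2 was lower than replicate 1 for every member, by a factor of 2.13 for Rasgrp1, 1.93 for Rasgrp2, 13.9 for Rasgrp3 and 2.14 for Rasgrp4. Leaving out inducible HIF-1α replicate 1 therefore moved the log2 fold changes to -5.23, -1.54, -4.74 and -2.13 in the same order. Leaving out replicate 2 moved them to -4.11, -0.56, -0.92 and -1.0.

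Levels of different members can be compared only per length, and CPM was divided by the kb of each gene's longest GENCODE M21 transcript with a consensus coding sequence. On this scale wild-type levels were 34.4 ± 2.45 for Rasgrp2, 25.1 ± 0.99 for Rasgrp4, 4.61 ± 0.322 for Rasgrp1 and 1.94 ± 0.47 for Rasgrp3 (CPM per kb; SD, n = 2). Each neighbouring pair in this order was separated by more than the spread of the libraries. The order of the 2 abundant members depended on the length used: per kb of coding sequence Rasgrp4 came first (56.9 ± 2.25) and Rasgrp2 second (43.3 ± 3.08), and the same held per kb of all annotated exons. In inducible HIF-1α the levels per kb of transcript were 17.3 ± 7.77 for Rasgrp2 and 8.99 ± 4.61 for Rasgrp4 (SD, n = 2). Rasgrp2 was above Rasgrp4 within each of these libraries (22.8 against 12.3 in replicate 1 and 11.8 against 5.73 in replicate 2). Per kb of coding sequence Rasgrp2 was also above Rasgrp4 (28.69 against 27.83 in replicate 1 and 14.85 against 13.02 in replicate 2). That is the reverse of the wild-type order on this scale. Per kb of all annotated exons Rasgrp4 was above Rasgrp2. Per kb of transcript Rasgrp1 was below Rasgrp3 in replicate 1 (0.259 against 0.993) and above it in replicate 2 (0.122 against 0.0714). Their order in inducible HIF-1α therefore cannot be given.

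The family's makeup shifted with these differences. Summed per kb of transcript, the 4 members reached 62.98 and 68.97 in wild type and 36.29 and 17.73 in inducible HIF-1α. Rasgrp1 made up 6.96% and 7.01% of that sum in wild type and 0.714% and 0.687% in inducible HIF-1α, where it rests on 35 and 17 counts. Rasgrp2 made up 51.8% and 52.4% in wild type and 62.8% and 66.6% in inducible HIF-1α. Rasgrp4 contributed 38.7% and 37.3%, then 33.8% and 32.3%. These shares depend on the length used. Per kb of coding sequence the Rasgrp4 share was also lower, at 50.4% and 48.9% in wild type and 46.9% and 46% in inducible HIF-1α. The annotated exons of Rasgrp2 cover 12384 bases, against 2296 in its longest consensus coding transcript. Per kb of all annotated exons Rasgrp4 made up 60.7% and 58.9% in wild type and 62.8% and 63.8% in inducible HIF-1α, so its share was higher there, not lower. On that scale Rasgrp2 went from 20.8% and 21.1% to 29.8% and 33.5%, and Rasgrp1 from 14.1% and 14.2% to 1.71% and 1.74%, in the same directions as per kb of transcript. Per kb of transcript Rasgrp3 contributed 2.55% and 3.29% in wild type, but 2.74% in replicate 1 and 0.403% in replicate 2 of inducible HIF-1α. Its share in replicate 1 lay within the wild-type range.

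**Figure D2:**
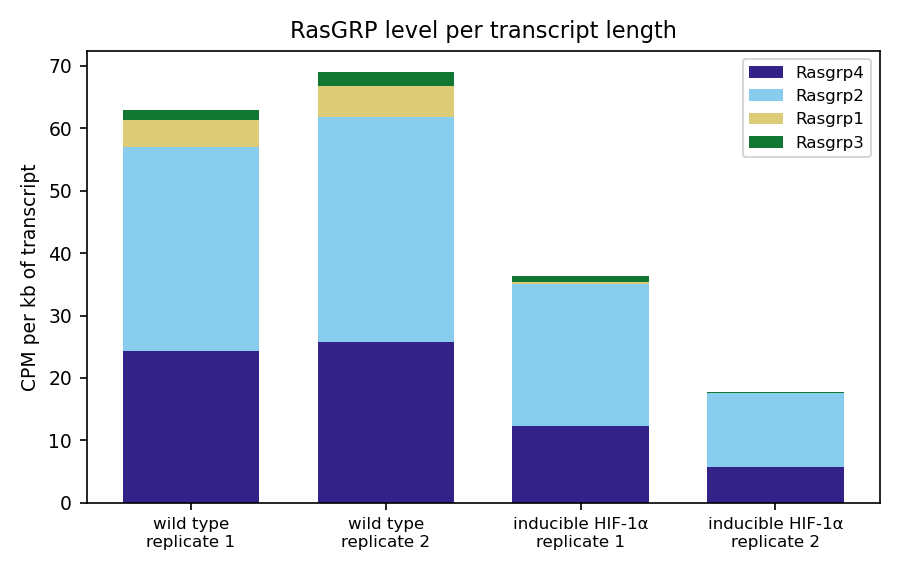
CPM per kb of the longest consensus coding transcript of each RasGRP gene, stacked for the 4 libraries (1 bar per library). Rasgrp2 and Rasgrp4 fill most of every bar, the Rasgrp1 segment shrinks from 4.38 and 4.84 to 0.259 and 0.122 CPM per kb, and the bar of inducible HIF-1α replicate 2 is the shortest.

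The genes whose profile over the 4 libraries was most like each member were found by the root mean square difference of centred log2 CPM among 11784 genes whose mean log2 CPM was 1 or more. For Rasgrp1 these were Mrc1, the mannose receptor gene of macrophages (0.165), Sdc4, a syndecan (0.211), and Itga8, an integrin α subunit gene (0.219), against a median of 2.33 over all candidates. Mrc1 was at 44.1 and 40.2 CPM in wild type and 3.06 and 1.24 CPM in inducible HIF-1α. For Rasgrp3 they were Mx1, an interferon-induced GTPase gene (0.155), Tmem106a (0.259) and Fas, the death receptor gene (0.279), against a median of 1.87. Mx1 was at 6.79 and 8.12 CPM in wild type and 3.29 and 0.299 CPM in inducible HIF-1α. All nearest genes were picked for their likeness, so a shared pattern and a distance below the median follow from that choice. Shared regulation was not tested.

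The nearest genes of the abundant members lay at smaller distances. Their medians over all candidates were smaller too, so this need not mark a closer likeness. For Rasgrp2 the nearest genes were Ppp1r3b, a glycogen-targeting phosphatase subunit gene (0.0176), Vat1 (0.0181) and the formin gene Fmnl2 (0.0182). For Rasgrp4 they were Cd300lf, a myeloid inhibitory receptor gene (0.0206), Vcam1, an adhesion molecule of stroma and macrophages (0.0333), and Dennd1c (0.0488). Their medians over all candidates were 0.681 and 0.913. Rasgrp2 and Rasgrp4 were also the most alike pair within the family (0.263), and Rasgrp1 and Rasgrp2 the least alike (1.76).

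Markers of the cell types in which RasGRP proteins act are set beside the RasGRP values here. The counts of markers that were lower without overlap stand against the 28.2% of all tested genes given above, and 24.6% were higher. The marker lists were also chosen with earlier results of these data known, so nothing is read from any excess over these shares. In a bulk sample, fewer cells of a type and less RNA per cell cannot be told apart. All 20 B cell markers were lower in both inducible HIF-1α libraries than in both wild-type libraries, and their summed level was 916.6 and 878.7 CPM in wild type and 120.9 and 67.6 CPM in inducible HIF-1α. Pax5, the B lineage commitment factor, was counted 223 and 149 times in wild type and 0 times in both inducible HIF-1α libraries. Relative to the wild-type mean, the B cell sum stood at -2.89 and -3.73 on the log2 scale in the inducible HIF-1α libraries, Rasgrp1 at -4.15 and -5.24, and Rasgrp3 at -0.96 and -4.76. A few members carried that sum: Ralgps2 and Cd37, with log2 fold changes of -0.89 and -1.43 that were not called, made up 17.9% and 18.9% of it in wild type and 73.8% and 83.6% in inducible HIF-1α. The median fitted log2 fold change of the 20 B cell markers was -4.96, beside -4.59 for Rasgrp1, so Rasgrp1 stood below the B cell list by its sum and not by its median. Of the 16 T and NK cell markers 15 were lower without overlap, and their sum was 273.3 and 293.1 CPM against 131.4 and 97.1 CPM, with a median log2 fold change of -1.83. Cd247 and Nkg7, at -0.12 and -0.86 and not called, made up 38.4% and 44.7% of that sum in wild type. In inducible HIF-1α they made up 69.8% and 74.6%. Nkg7 is also in the list of neutrophil primary granule genes below. The part of either cell type in the Rasgrp1 and Rasgrp3 values was not tested.

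For Rasgrp2 the related lists were platelets and neutrophils. Of 14 tested megakaryocyte and platelet markers 7 were lower without overlap and none was higher without overlap, with sums of 150.7 and 154.1 CPM in wild type and 109.4 and 78.5 CPM in inducible HIF-1α and a median log2 fold change of -0.59. Gp6, the platelet collagen receptor gene, was too low to be tested, with 20 and 1 counts in wild type and 0 in both inducible HIF-1α libraries. Of 14 mature neutrophil markers 13 were lower without overlap, and on the log2 scale their sum stood at -0.53 and -1.66 against the wild-type mean, beside -0.59 and -1.54 for Rasgrp2. The 6 most abundant of them (Ngp, S100a8, Ltf, Lcn2, S100a9 and Camp) made up 94.1% of that sum in each inducible HIF-1α library. The median log2 fold change of the list was -1.48, beside -0.99 for Rasgrp2, and Retnlg, a resistin-like gene of neutrophils named after its values were seen, was at -3.03 ± 0.37. For Rasgrp4, 5 of 8 tested mast cell and basophil markers were lower without overlap, and the list stood at -0.46 and -1.10 beside -1.03 and -2.13 for the gene. The median log2 fold change of these markers was -0.42, and that of Rasgrp4 was -1.48. The mast cell protease gene Mcpt4 was near the detection limit throughout, with 4 and 0 counts in wild type and 0 in both inducible HIF-1α libraries. Primary granule genes of neutrophil precursors stood at 0.01 and -1.06, with 4 of 10 lower without overlap and a median of -0.43. Monocyte and macrophage markers stood at -0.60 and -1.84, with 15 of 16 lower without overlap. Ccr2, Ly6c2 and Vcam1 made up 93.6% and 90.8% of the sum in inducible HIF-1α, and the median log2 fold change of the list was lower, at -2.54. Ms4a7 was counted 27 and 14 times in wild type and 0 times in inducible HIF-1α, and with this gene set at the bound of 3 counts per library the median was -2.32. Mrc1, also the nearest profile to Rasgrp1, was at -4.29 ± 0.43 in this list. Dendritic cell and MHC class II genes stood at -0.97 and -1.63, with 9 of 15 tested genes lower without overlap and a median of -1.55. The sum of stem and progenitor markers was slightly above wild type (0.32 and 0.23, with a median log2 fold change of 0.07; 1 of 17 lower and 4 higher without overlap). Myb, Kit and Tal1 made up 69.1% and 79.7% of that sum in inducible HIF-1α. Its members diverged in replicate 2, as 2 genes named after their values were seen show. Cd34 was at 52.1 CPM there, against 95.2 and 117.9 in wild type, and Tal1 at 309.3 CPM, against 134 and 115.6. Erythroid markers went apart between the replicates (-0.83 and 0.20; 5 of 18 lower and 7 higher without overlap). Their median log2 fold change was 0.42, opposite in sign to the log2 ratio of the group sums (-0.22). The part of these cell types in the values of Rasgrp2 and Rasgrp4 was not tested.

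**Figure D3:**
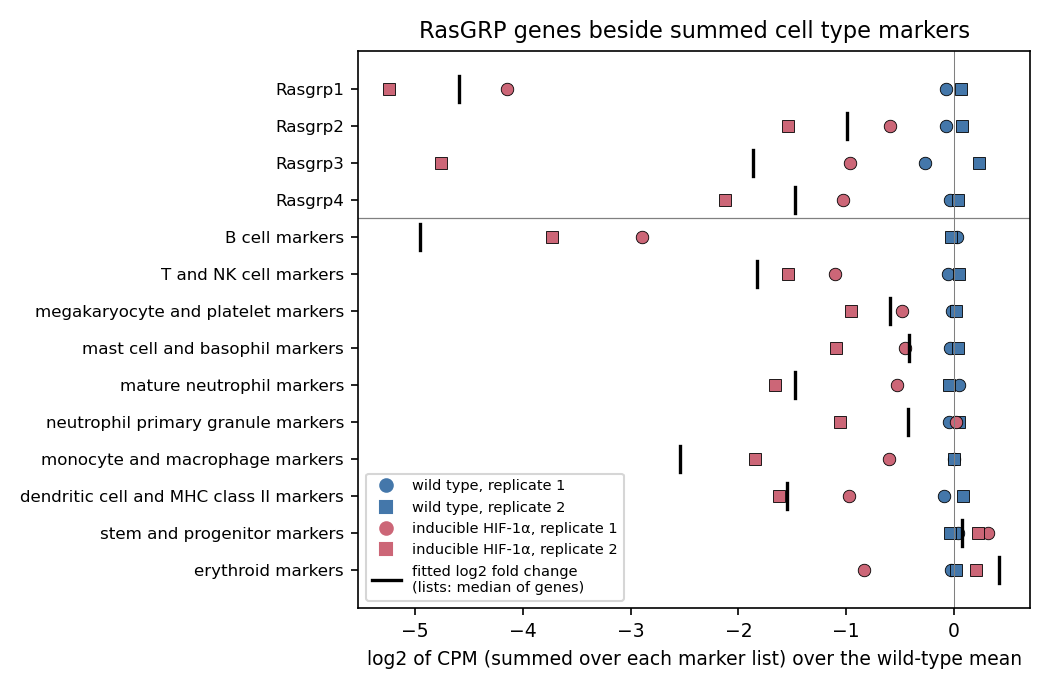
Level of each RasGRP gene (above the line) and summed level of each cell type marker list (below it) in the 4 libraries, as log2 of CPM over the wild-type mean; circles and squares are replicates 1 and 2, blue is wild type, red is inducible HIF-1α, and black bars are fitted log2 fold changes (for lists, the median over tested genes). Both red points of Rasgrp1 lie left of those of every marker sum, but the black bar of the B cell markers (-4.96) lies left of that of Rasgrp1 (-4.59).

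The other genes of the DAG, Ras and Rap pathway were read from 12 lists with 144 genes, of which 131 were tested. edgeR's quasi-likelihood test with Benjamini-Hochberg adjustment over all tested genes called 3 of them lower (2.29%) and 0 higher at an adjusted p under 0.05. The same test called 1.0% of all tested genes lower and 0.114% higher. At an unadjusted p under 0.05, 43 pathway genes were lower and 4 higher, beside 1609 lower (11.5%) and 764 higher (5.44%) of all tested genes. DESeq2 called 25 pathway genes lower and 2 higher, and 790 and 172 over all genes. Of the 131, 77 (58.8%) were lower without overlap between the groups and 10 (7.63%) higher, beside 28.2% and 24.6% of all tested genes. Their median log2 fold change was -0.50. The pathway lists were chosen with earlier results of these data known, so nothing is read from these shares. The number called depended on which group gave the spread. Without replicate 1 or 2 of wild type, where the spread comes from the inducible HIF-1α pair, 0 pathway genes were called, and only 2 and 0 of all genes were. Without replicate 1 of inducible HIF-1α, where the wild-type pair gives the spread, 70 pathway genes were lower and 6 higher (2871 and 1798 over all genes). Without its replicate 2 these were 31 and 3 (1109 and 557 over all genes). In each case the lone library is assumed to vary like the other group.

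At the receptor-proximal step 3 of 18 antigen receptor kinases and adaptors fell and 14 were lower without overlap. Blnk, the adaptor that couples the B cell receptor to phospholipase C, fell from 31.8 and 30.8 CPM to 2.83 and 0.898 CPM (log2 fold change -4.07 ± 0.51, edgeR adjusted p = 0.0235). It is also one of the B cell markers above. Grap2, an adaptor of the T cell receptor complex, fell from 21.8 and 21 CPM to 3.72 and 4.19 CPM (-2.43 ± 0.26, edgeR adjusted p = 0.0169). Lck, the kinase that starts T cell receptor signalling and a T cell marker above, fell by 1.71 on the log2 scale and is named, after its values were seen, because so few were called. Without either wild-type library none of the 3 was called (edgeR adjusted p = 0.323 to 0.594), but the log2 fold changes stayed as large, at -4.02 and -4.10 for Blnk, -2.39 and -2.46 for Grap2 and -1.68 and -1.72 for Lck. Other kinases of this step were not called, such as Syk, named after its values were seen (-1.25 ± 0.26, edgeR adjusted p = 0.0886). Btk, named after its values were seen, was near 0 on the log2 scale (-0.10 ± 0.19), with 75.9 and 78.8 CPM in wild type and 79.6 and 65.0 CPM in inducible HIF-1α.

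None of the enzymes that make or remove DAG was called. Of 10 tested phospholipase C and related genes 6 were lower without overlap, and Plcb4 had the smallest p (-0.74 ± 0.25, edgeR adjusted p = 0.219). Plcg2, the phospholipase of B cells and named after its values were seen, was at 166.8 and 193.9 CPM in wild type and 128.6 and 55.7 CPM in inducible HIF-1α. Of 8 tested DAG kinases, which turn DAG into phosphatidic acid, 6 were lower without overlap. Dgka had the smallest p among them (-1.27 ± 0.27, edgeR adjusted p = 0.0889), with 41.5 and 53.9 CPM against 23.4 and 16.2 CPM.

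The next 2 lists follow gene families that hold other readers of DAG, though not every family member reads it. None of the 10 tested protein kinase C and D genes reported was called, and 6 were lower and 1 higher without overlap. Prkcb, the isoform of the B cell receptor pathway, was at 440.6 and 458 CPM against 254.2 and 122.8 CPM and was not called (edgeR adjusted p = 0.145). Prkcq, the isoform of T cells, had the smallest p of those reported and was not called, with 11.0 and 10.3 CPM in wild type against 18.4 and 28.4 CPM in inducible HIF-1α (1.14 ± 0.29, edgeR adjusted p = 0.129). Prkcb was named after its values were seen. None of the 5 tested chimaerin and Munc13 genes was called, and 1 was lower and 1 higher without overlap. Unc13d, which acts in granule release, had the smallest p (-0.47 ± 0.21, edgeR adjusted p = 0.317).

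The GTPases on which RasGRP proteins act, and their other regulators, held no called gene. Hras (-0.05 ± 0.31) and Nras (-0.08 ± 0.18), named after their values were seen, had log2 fold changes near 0. Nras was at 331.4 to 385.4 CPM over the 4 libraries. Rap1b, the main Rap1 of platelets, had the smallest p of the 10 GTPase genes (-0.56 ± 0.22, edgeR adjusted p = 0.276). Among 8 tested other Ras and Ral exchange factors 7 were lower and 1 higher without overlap, and Ralgps1 had the smallest p (-1.72 ± 0.28, edgeR adjusted p = 0.0504). The one that was higher is Sos1, the receptor tyrosine kinase exchange factor and named after its values were seen, at 89.5 and 82.0 CPM in wild type and 115.3 and 116 CPM in inducible HIF-1α (0.43 ± 0.18, edgeR adjusted p = 0.282). Of 8 Rap exchange factors 4 were lower without overlap, with the smallest p for Dock4 (-1.97 ± 0.50, edgeR adjusted p = 0.129). Of 16 GTPase-activating proteins, which switch Ras and Rap off, 8 were lower and 3 higher without overlap. Rap1gap2, a Rap1 inactivator of platelets, had the smallest p there (-1.47 ± 0.26, edgeR adjusted p = 0.057).

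Downstream of Ras and Rap, again no gene was called. Of 11 tested genes of the RAF, MEK and ERK cascade 6 were lower and 1 higher without overlap. Mapk3, encoding ERK1, had the smallest p (-1.05 ± 0.19, edgeR adjusted p = 0.0676), with 104.1 and 122.7 CPM against 58.2 and 51.1 CPM. Of 13 tested ERK feedback genes 7 were lower without overlap and 1 higher. The ERK phosphatase gene Dusp6, which ERK itself induces, was at 105.5 and 91.2 CPM in wild type and 35.9 and 14.9 CPM in inducible HIF-1α (-1.95 ± 0.40, edgeR adjusted p = 0.085). Of 14 genes of Rap1 and integrin activation 9 were lower and none higher without overlap, with the smallest p for Itgb2, the β2 integrin of leukocytes (-1.25 ± 0.31, edgeR adjusted p = 0.129). Talin 1 (Tln1, -0.36 ± 0.20) and kindlin-3 (Fermt3, -0.13 ± 0.18), the integrin activators that act after Rap1, were not called and were named after their values were seen.

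**Figure D4:**
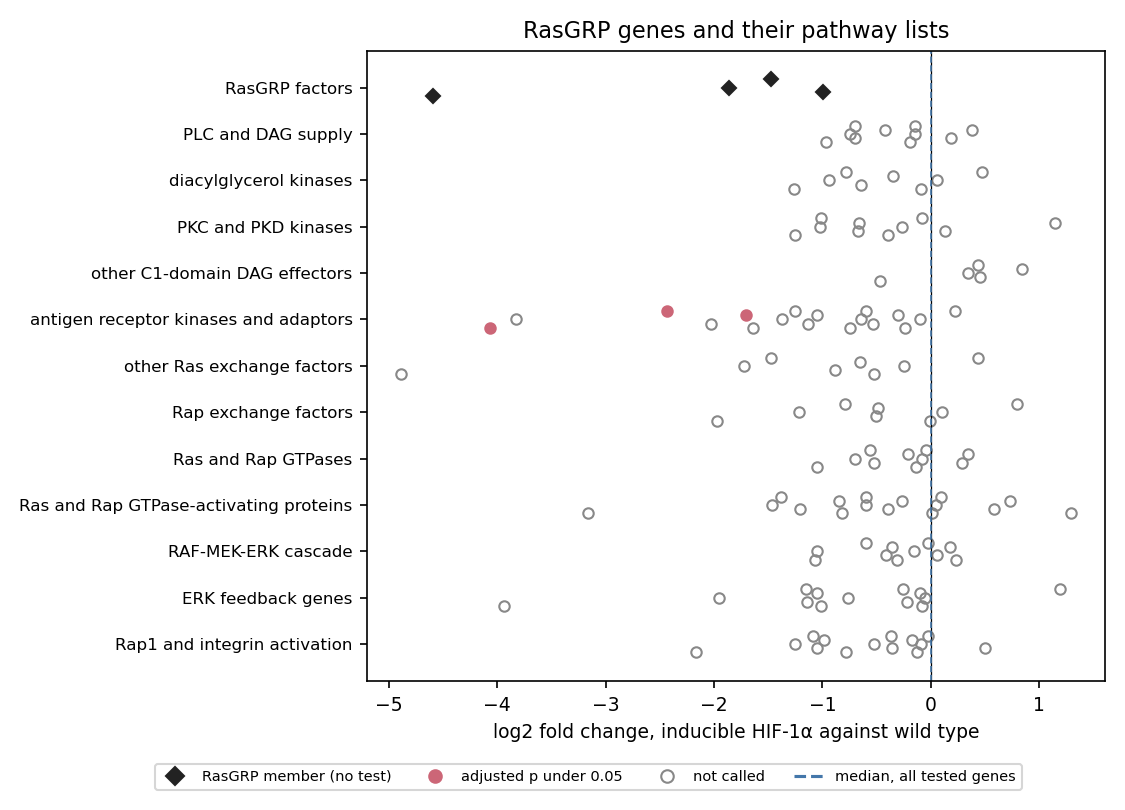
Log2 fold change, inducible HIF-1α against wild type, of the RasGRP genes (diamonds, not tested) and of every tested gene of the 12 pathway lists (circles; filled where the edgeR adjusted p was under 0.05; vertical scatter within a row has no meaning). The 3 filled circles are Blnk, Grap2 and Lck, and the dashed line at 0.00 is the median of all tested genes.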

How the data were processed

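The submitters' processing notes name bcl2fastq, CASAVA 1.8, TopHat and edgeR as tools and mm10 as genome build. For the counting tool, its annotation, and its strand and multi-mapping settings, no setting is given in the sources used here. Raw counts per Entrez gene were deposited by the authors, 1 column per library. Symbols came from RefSeq's GRCm38.p6 genes (the assembly of mm10), and 81 of 24415 identifiers had no match. No row of the table repeats the counts of a RasGRP gene.

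All libraries were fitted together in R 4.3.3 with edgeR 4.0.16 (filterByExpr with a minimum count of 10, TMM scaling, glmQLFit and glmQLFTest, no block), with Benjamini-Hochberg adjustment over 14043 genes and a threshold of 0.05. SEs were obtained as the absolute log2 fold change over the square root of the F statistic. The fit was tested on simulated data. CPM values use TMM library sizes. The p-values set the group difference against the spread between libraries, which may be technical. That spread was estimated over both groups together. At these depths the 3 counts that a count of 0 allows correspond to 0.109 to 0.135 CPM of the unscaled totals.

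The members and all gene lists were chosen with earlier results of these data known. Some genes of the pathway lists are not reported here, and the lists' counts and named genes cover the remaining genes. Named are the members, from each pathway list up to 2 called genes by smallest p (otherwise the 1 gene ranking first), the 3 nearest profiles of each member, and genes marked as named after their values were seen. DESeq2 1.42.0 and limma-voom (limma 3.58.1) were alternatives, beside other scalings and filters, a replicate block and leaving out each library.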

Additional observations from a re-analysis of the deposited data

How the results depend on the processing

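All 4 RasGRP log2 fold changes were negative under every alternative that could be fitted. Over scalings, filters, tools and the replicate block they ranged from -4.67 to -4.51 for Rasgrp1, -1.07 to -0.91 for Rasgrp2, -2.82 to -1.78 for Rasgrp3 and -1.58 to -1.40 for Rasgrp4. Leaving out 1 library gave -5.23 to -4.11, -1.54 to -0.56, -4.74 to -0.92 and -2.13 to -1.0 in that order. Requiring 1 CPM or more in every library removed Rasgrp1 and Rasgrp3, so it gives no value for them. The pathway genes called lower numbered 3, against 15 without a filter, 2 with that filter, 25 with DESeq2 and 7 with limma-voom, and 0 to 70 when 1 library was left out (21 and 18 at an unadjusted p under 0.05 without wild-type replicates 1 and 2). Those called higher numbered 0, against 1 without a filter, 2 with DESeq2 and 0 to 6 when 1 library was left out. Over all tested genes, 141 were called lower and 16 higher, against 628 and 119 without a filter, 69 and 9 with at least 1 CPM, 85 and 12 with total-count scaling, 790 and 172 with DESeq2, and 0 to 2871 lower and 0 to 1798 higher when 1 library was left out.

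With the replicate number as a block, 8 pathway genes were called lower and 0 higher (347 and 34 over all genes), and the RasGRP log2 fold changes were -4.64, -1.06, -2.50 and -1.58. Replicate deviations correlated at 0.0774 between the groups. With 2 libraries per group this cannot tell whether same-numbered libraries share a batch, and no source used here says so. The 14 pathway genes that were called or named by smallest p gave 181 values under the alternatives. Of these, 134 stayed on the same side of the threshold, 6 lost the call, 41 gained one and 0 changed direction. Most gains came with an inducible HIF-1α library left out, without a filter or with DESeq2. Uncalled genes named after their values were seen are not among the 14. In inducible HIF-1α replicate 2 Rasgrp1 and Rasgrp3 rest on only 17 and 9 counts, although this library held 26373177 counts and replicate 1 held 24852965. The cause of the difference between the inducible HIF-1α libraries was not tested.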
